A study of Homo sapiens with 46 samples.

Results

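RNA held in the chromatin fraction of human pluripotent stem cells (hPSC) was set against RNA of the cytoplasmic fraction of the same cells. The libraries were chosen by their labels: 3 of chromatin and 3 of cytoplasm, 6 of the 46 libraries in the series. The cells were H1, an established human embryonic stem cell line, so 1 line stands for the cell type, and they were undifferentiated. The series also fractionated cells differentiated from the line to ectoderm, endoderm and mesoderm, and sequenced nucleoplasm and whole nuclei. Cells were opened with a mild NP-40 buffer to release cytoplasm, nuclei were spun through a sucrose cushion, and the nuclei were lysed with NP-40 and urea so that chromatin pelleted and nucleoplasm stayed in solution. All fractions met α-amanitin, an inhibitor of RNA polymerase II, in the buffers. The design text of the series also mentions actinomycin D, and no sample label does. Replicates are labelled as repeats only. Nothing says that they were separate cultures, so p-values measure a spread between libraries, which may be technical. In the main test that spread comes from all 12 hPSC libraries, nucleoplasm and whole nuclei included.

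The deposited count table of these cells held 15115 genes with an Ensembl identifier, of which 13987 had enough counts to be tested. Counts in genes came to between 12654737 and 15605170 in the chromatin libraries and to between 8253382 and 13886843 in the cytoplasmic ones. Chromatin replicate 3 and cytoplasm replicate 1 stood apart from the other libraries of their fractions. Pearson's r of log2 CPM (counts scaled to a common library size) across genes was 0.995 between chromatin replicates 1 and 2, and 0.961 and 0.964 between replicate 3 and these. It was 0.993 between cytoplasm replicates 2 and 3, and 0.979 and 0.974 between replicate 1 and these. Some values are given with and without them, and a value given only with them may still rest on them. CPM are shares of a library, and the RNA per cell in each fraction is not in the files, so a gene with a higher share in chromatin may still have fewer molecules there.

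An mRNA is made on chromatin, processed there and released through the nucleoplasm to the cytoplasm, where most mRNAs are translated on free ribosomes. An mRNA that codes for a secreted or membrane protein is instead carried by the signal recognition particle to the endoplasmic reticulum (ER), whose membrane is continuous with the outer nuclear envelope. Mitochondria transcribe their own genome and keep those RNAs inside the organelle. In undifferentiated stem cells the transcription factor POU5F1 and its partners hold the pluripotent state, and MIR302CHG, the host RNA of the miR-302 cluster, is among the most typical long non-coding RNAs.

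Markers of hPSC were present: 12 of 12 were in the table, with a summed level of 10917 to 11047 CPM in chromatin and 9447 to 10298 CPM in cytoplasm. None of 8 endoderm markers and 1 of 6 ectoderm markers (NES, which stem cells also express) were in the table. Of 7 mesoderm markers 4 were, led by KDR, of 6 fibroblast markers 4, with COL1A1, COL1A2 and THY1 read and COL3A1 at or near 0, and of 5 trophoblast markers only KRT7. The mesoderm markers summed to 182 to 210 CPM in chromatin and 37.0 to 39.1 CPM in cytoplasm, and the fibroblast markers to 1200 to 1480 CPM and 317 to 342 CPM. Their part in other differences was not tested. The fraction labels met a mixed check. The 6 genes taken as cytoplasmic controls summed to 21124 to 22120 CPM in chromatin and 42862 to 45859 CPM in cytoplasm. Of 5 nuclear RNAs, SNHG14 and TUG1 were higher in chromatin, MALAT1 and NEAT1 were lower in chromatin than in cytoplasm, and MEG3 was not called.

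Between the fractions, 4861 genes were higher in chromatin (34.8% of the genes tested) and 4058 lower (29%) at an adjusted p below 0.05, by edgeR's quasi-likelihood test with Benjamini-Hochberg adjustment. The median log2 difference over all genes was 0.08, and the median standard error of a called gene was 0.18. Rises were larger than falls: 814 genes were at least 4-fold higher and 134 at least 4-fold lower. The balance depends on the scale. On the authors' TPM, which divide by transcript length, limma called 9120 higher and 941 lower and the median of all genes moved to 0.71, so 90.7% of calls were higher against 54.5% on counts. With library totals alone 59.1% of calls were higher. Where the direction of a gene group turns with this shift, both values are given. On TPM the falls of SRSF3, SRSF9, FDPS, HDAC2, RNF2, ATF3, UPF3B, TPR, RPS29 and ENSG00000278996, described below on counts, were not called (adjusted p by limma from 0.0655 to 0.694). The plot of changes by gene list is drawn on counts.

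**Figure D1:**
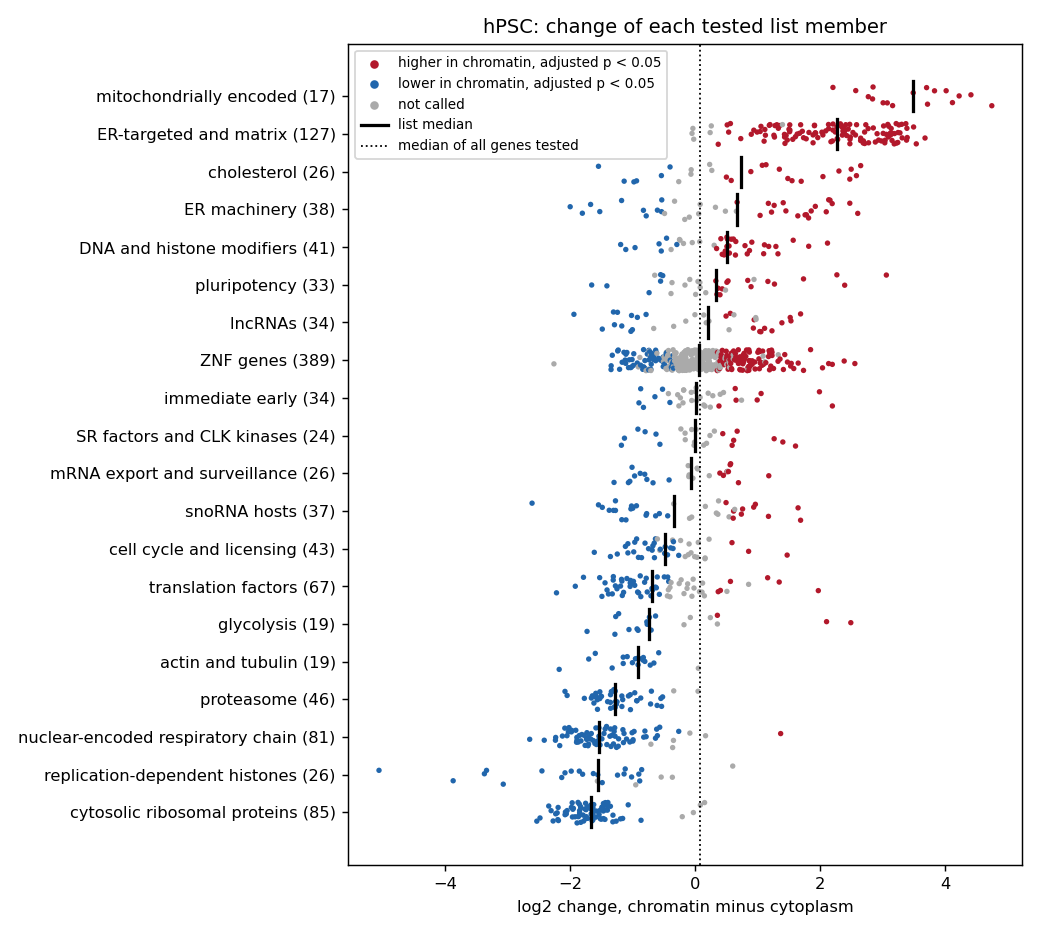
Log2 change on counts, chromatin minus cytoplasm (x axis), for every tested member of 20 lists (y axis, with the number tested), coloured by call, with the list median as a bar and the median of all genes as a dotted line. The mitochondrial (median 3.49) and ER-targeted (median 2.27) lists lie to the right, and ribosomal proteins (−1.67), histones (−1.56) and the nuclear-encoded respiratory chain (−1.54) to the left.

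Among coding genes with a mean of at least 10 CPM, SPTAN1, SPTBN1, AHNAK, PRR11 and IQGAP1 were among the 6 with the largest rises in chromatin. SPTAN1, the α-spectrin of the submembrane skeleton, was at 1850, 1560 and 2214 CPM in the 3 chromatin libraries and at 56.7, 59.4 and 68.5 CPM in the 3 cytoplasmic ones, a log2 difference of 4.93 ± 0.17 (SE, adjusted p = 1.49e-09). SPTBN1, the β-spectrin that pairs with SPTAN1, differed by 4.45. In both of these mRNAs every chromatin library lay far above every cytoplasmic one, and nucleoplasm lay between, at a mean of 584 CPM for SPTAN1. AHNAK, a giant scaffold protein, was at 42.7, 36.8 and 59.2 CPM against 4.02, 1.69 and 2.00 CPM. IQGAP1, a scaffold at the cell cortex, differed by 4.04, and PRR11 by 4.10 (438, 341 and 390 CPM against 14, 25.1 and 28.2 CPM). None of these proteins has a hydrophobic stretch of the kind that opens a secreted protein.

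**Figure D2:**
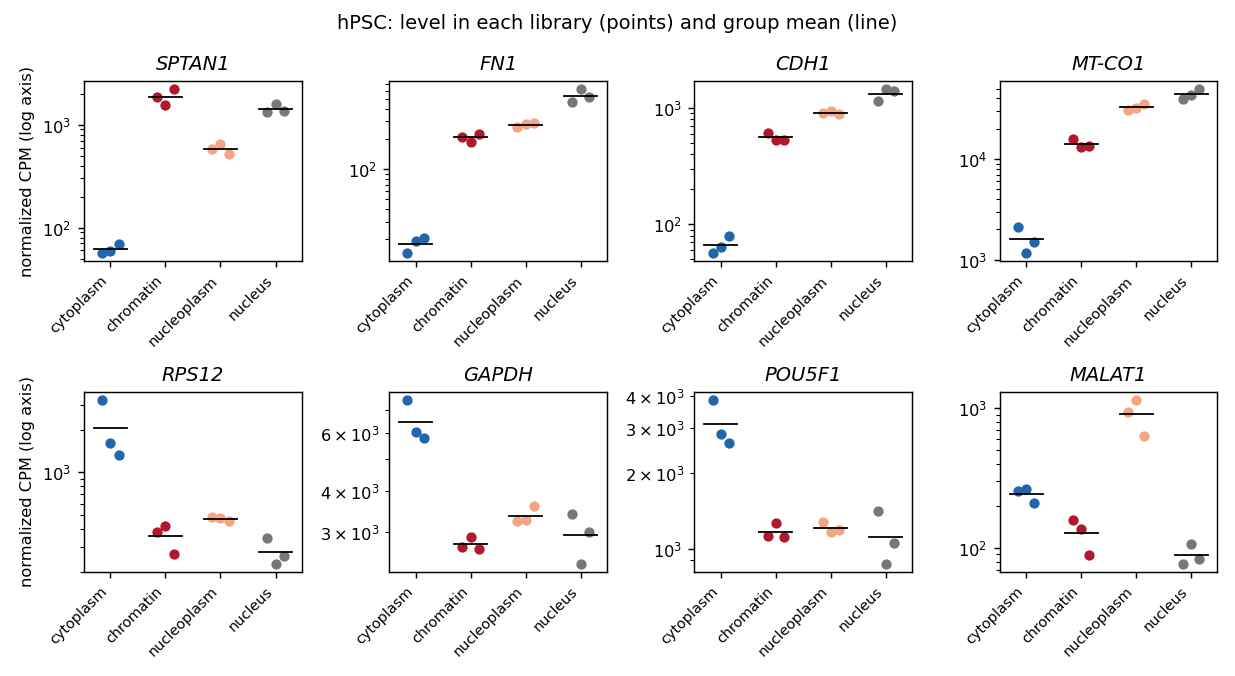
Normalized CPM (log axis, a range of its own in each panel) of 8 genes in the hPSC libraries of 4 fractions; points are libraries and lines the means of 3. SPTAN1, FN1, CDH1 and MT-CO1 are higher in all 3 chromatin than in all 3 cytoplasmic libraries, and RPS12, GAPDH, POU5F1 and MALAT1 lower.

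All 17 genes of the mitochondrial genome that were measured were higher in chromatin, with log2 differences from 2.21 for the transfer RNA gene MT-TW to 4.75 for MT-ND5, a subunit of respiratory complex I. MT-CO1, a core subunit of cytochrome c oxidase, was at 15883, 13153 and 13560 CPM in chromatin against 2107, 1164 and 1497 CPM in cytoplasm (3.16 ± 0.21). MT-ND5 was at 2702, 2132 and 2169 CPM against 79.1, 72.9 and 108 CPM. Without both libraries that stand apart all 17 were higher, with a median of 3.86 in place of 3.49. Together mitochondrial genes took 5.80, 4.89 and 4.51% of all counts in chromatin and 0.615, 0.399 and 0.530% in cytoplasm. The groups do not overlap, and the exact two-sided permutation test gave p = 0.10, the smallest that 3 libraries against 3 allow. Per length, MT-CO1 was the most abundant RNA of the chromatin fraction, at a mean of 19677 TPM, and 5 of the 8 most abundant were mitochondrial. The level in nucleoplasm was higher still, with a mean of 32739 CPM for MT-CO1. MALAT1, made and kept in the nucleus, was at 159, 138 and 88.7 CPM in chromatin and at 256, 266 and 209 CPM in cytoplasm (−0.93, adjusted p = 0.0033). Per length its means were 26.1 TPM in chromatin and 26.6 TPM in cytoplasm. RNA of organelles that came down with nuclei and RNA held on chromatin cannot be told apart in these libraries, and the part of the first in the other differences was not tested. Nuclear copies of mitochondrial sequence could also take or give reads.

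Secreted, matrix and membrane proteins had the next highest median difference among the lists. Of 127 tested genes in the list of ER-targeted and matrix proteins, 121 were higher, none was lower, and the median log2 difference was 2.27, against 0.08 over all genes. Without both libraries that stand apart these values were 120 higher, none lower and 2.22. The list took 2.41% ± 0.26 (SD, n = 3) of counts in chromatin and 0.457% ± 0.069 (SD, n = 3) in cytoplasm. The signals that send such proteins to the ER lie at the start of the coding sequence. The first 40 codons of 4 risen mRNAs and of 2 mRNAs without such a signal are shown 5′ to 3′, read from the longest coding transcript in GENCODE 29 on GRCh38. Capitals mark the 10 codons of the most hydrophobic run, where its mean Kyte-Doolittle hydropathy reached 2.
CDH1: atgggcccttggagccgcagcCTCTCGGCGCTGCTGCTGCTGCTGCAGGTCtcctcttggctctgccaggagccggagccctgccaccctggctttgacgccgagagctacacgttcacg
FBN2: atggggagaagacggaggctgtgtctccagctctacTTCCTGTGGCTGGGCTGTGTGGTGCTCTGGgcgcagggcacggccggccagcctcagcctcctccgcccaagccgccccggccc
HSPA5: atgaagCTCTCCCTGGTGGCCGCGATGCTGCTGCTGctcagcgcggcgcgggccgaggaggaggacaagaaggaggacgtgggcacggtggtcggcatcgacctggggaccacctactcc
PDIA4: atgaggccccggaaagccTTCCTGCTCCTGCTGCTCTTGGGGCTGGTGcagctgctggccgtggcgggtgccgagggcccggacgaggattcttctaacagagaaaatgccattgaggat
RPS12: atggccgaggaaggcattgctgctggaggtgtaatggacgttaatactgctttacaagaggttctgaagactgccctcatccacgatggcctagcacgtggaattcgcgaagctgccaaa
SPTAN1: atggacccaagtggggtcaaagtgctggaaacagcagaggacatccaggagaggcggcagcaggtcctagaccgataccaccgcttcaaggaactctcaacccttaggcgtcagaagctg
The marked runs reach a mean hydropathy of 2.45, 2.29, 2.79 and 3.32, and the most hydrophobic runs of RPS12 and SPTAN1 1.37 and 0.34.

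CDH1, the epithelial cadherin that holds stem cell colonies together (chr16:68737225-68835548), was at 609, 534 and 531 CPM in chromatin against 56.7, 63.6 and 80.0 CPM in cytoplasm (3.06 ± 0.15, adjusted p = 7.85e-09). FBN2, a fibrillin of matrix microfibrils (chr5:128257909-128659185), was at 69.7, 61.5 and 72.3 CPM against 5.32, 3.17 and 7.34 CPM (3.68 ± 0.23). COL7A1, the collagen of anchoring fibrils, differed by 3.54. All chromatin libraries lay far above all cytoplasmic ones for these genes. The member of the list closest to 0, SLC7A6OS (−0.02), entered it by its name only and has no hydrophobic stretch.

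Over all coding genes the same start of the protein went with the fraction. Proteins with a hydrophobic run in the first 40 residues were coded by 2386 tested genes, with a median log2 difference of 0.95 and with 1498 genes higher and 279 lower. Proteins with only an internal stretch, as in many membrane proteins, had a median of 0.76 over 1132 genes (657 higher, 155 lower). The remaining 8711 genes had a median of −0.19 (2039 higher, 3347 lower). On TPM the medians were 1.33, 1.19 and 0.55, beside 0.71 for all genes, so the order was the same and the negative sign of the last group was not. Without both libraries that stand apart the medians were 0.97, 0.75 and −0.18.

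Transcript length went with the fraction as well. From the shortest to the longest of 5 equal groups of coding genes the median rose from −0.85 through −0.22, 0.02 and 0.34 to 0.59. On TPM the groups ran from 0.01 to 1.13, beside a median of 0.71 for all genes. A transcript is divided by the same length in both fractions, so TPM do not test the trend with length. Within the longest group, genes with a run at the protein start had a median of 1.53 and genes with no stretch 0.39; within the shortest, 0.01 and −1.01. So at each length the classes differed, and within each class the longer mRNAs were higher. Across genes Spearman's rho with the log2 difference was 0.46 for transcript length, 0.50 for protein length, 0.32 for the number of exons and 0.24 for gene span. These are descriptions over genes that share libraries and are not independent.

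**Figure D3:**
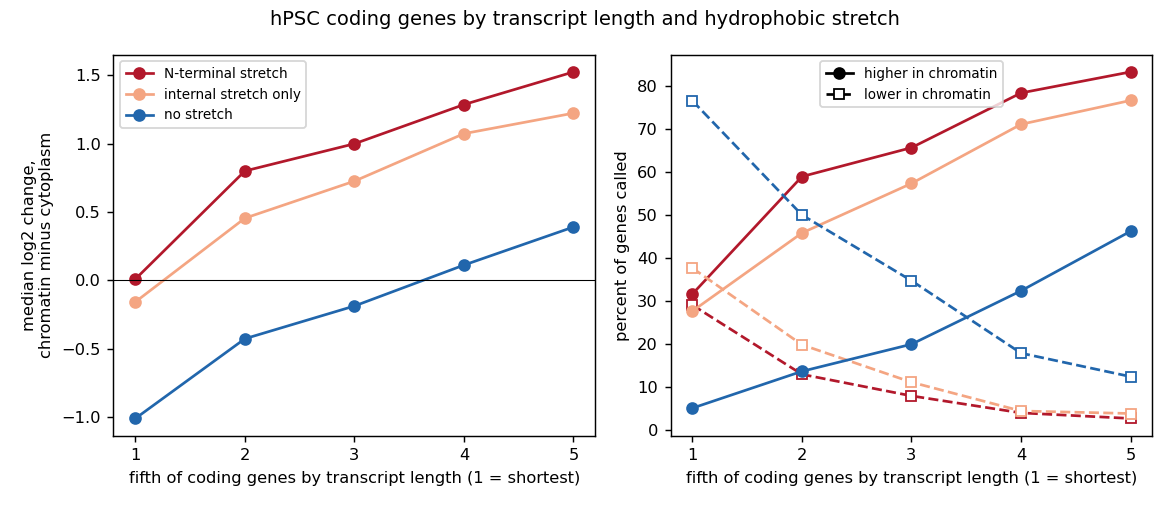
Coding genes in 5 equal groups of transcript length (x axis, 1 the shortest) and by hydrophobic stretch: the median log2 change on counts (left) and the percent of genes called higher (filled points) or lower (open squares, dashed) in chromatin (right). In the left panel the classes keep their order in every group, from 0.01, −0.16 and −1.01 in the shortest to 1.53, 1.22 and 0.39 in the longest.

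**Figure D4:**
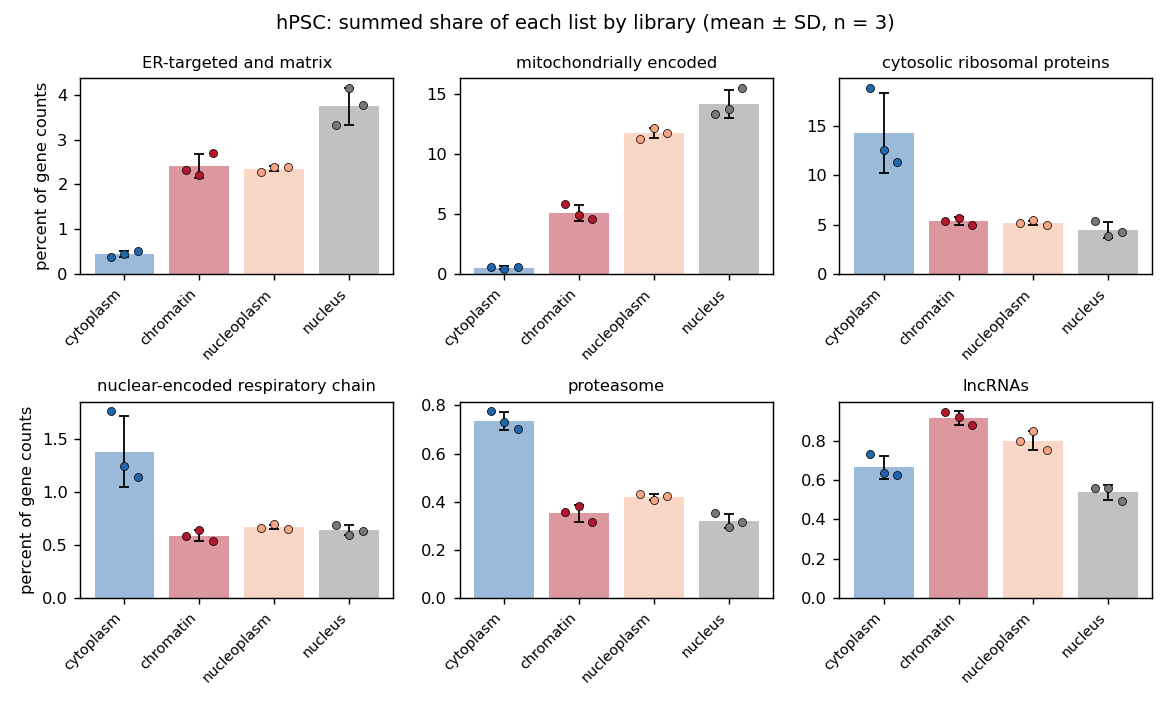
Percent of the counts in genes taken by 6 lists in the hPSC libraries of 4 fractions; points are libraries, bars means and error bars SD over 3. The ER-targeted list lies at 2.41% ± 0.26 in chromatin and 0.457% ± 0.069 in cytoplasm, and in whole nuclei at a mean of 3.74%.

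The machinery of the ER had members on both sides. Of 38 genes 19 were higher and 10 lower (median 0.67). The share higher was 50%, beside 34.8% over all genes. The share lower, 26.3%, was near the 29% over all genes. PDIA4, a disulfide isomerase of the ER lumen (chr7:149003062-149028641), was at 361, 322 and 357 CPM in chromatin against 41.2, 64.8 and 64.6 CPM (2.60 ± 0.16). HSPA5, the main ER chaperone (chr9:125234853-125241330), was at 554, 486 and 451 CPM against 89.6, 86.6 and 92.0 CPM (2.48 ± 0.13). The small tail-anchored translocon subunits SEC61G and SEC61B, which have no run at the start, were lower by −2.0 and −1.81. Without both libraries that stand apart they differed by −1.23 and −1.305. SRP72, a protein of the signal recognition particle, which is made in the cytosol, was not called (0.06). RN7SL1, the RNA of that particle, was at 33.1, 63.1 and 16.5 CPM in chromatin against 942, 1018 and 495 CPM in cytoplasm (−4.44 ± 0.52, adjusted p = 8.45e-06). Near-identical copies of RN7SL1 in the genome make its counts uncertain.

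Cholesterol genes also lay on both sides. Of 26 cholesterol genes 15 were higher (57.7%, beside 34.8% over all genes) and 6 lower (23.1%, a smaller share than the 29% over all genes). NPC1, the lysosomal cholesterol transporter, was at 52.6, 41.8 and 53.6 CPM against 8.56, 7.12 and 9.08 CPM (2.58), with no overlap. The soluble enzymes PMVK and FDPS were lower, by −1.55 and −1.14. Of 19 glycolysis genes 3 were higher and 12 lower, with a median of −0.73. On TPM the median turned to 0.16, beside 0.71 for all genes. The membrane glucose transporters SLC2A1 (760, 697 and 792 CPM against 149, 110 and 141 CPM) and SLC2A3 were higher, by 2.49 and 2.10. The enzymes LDHB and TPI1 were lower, by −1.73 and −1.28.

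Cytosolic ribosomal protein mRNAs, which are short, were higher in cytoplasm: 81 of 85 were lower in chromatin, none was higher, and the median was −1.67 (−0.75 on TPM, with 75 lower and 4 higher). RPS12 (chr6:132814441-132817564) was at 378, 418 and 266 CPM in chromatin and at 3237, 1600 and 1321 CPM in cytoplasm (−2.54 ± 0.30). RPL39 was at 143, 178 and 93.8 CPM against 1401, 544 and 377 CPM (−2.48). RPL4, the member with the smallest change, did not differ beyond its error (−0.03 ± 0.12). Without both libraries that stand apart 80 were lower and 1 was higher (median −1.24), and RPS12 and RPL39 differed by −1.88 and −1.52. The list took 5.32, 5.68 and 4.89% of counts in chromatin and 18.7, 11.4 and 10.5% in cytoplasm (exact permutation p = 0.10). Cytoplasm replicate 1 had the highest share, and without it the difference of the means was −5.67 percentage points in place of −8.26. RPS29 was lower by −1.47, but by −0.95 without that library (adjusted p = 0.0702) and by −0.73 without both that stand apart (adjusted p = 0.106). Processed pseudogenes of these genes could take or give reads.

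Other short mRNAs of abundant complexes lay on the same side. Of 81 nuclear-encoded respiratory chain genes 75 were lower and 1 was higher (median −1.54, −0.52 on TPM), the opposite direction from the mitochondrially encoded subunits of the same complexes. ATP5ME, a small subunit of ATP synthase, was at 11.7, 15.5 and 8.81 CPM against 134, 55.2 and 38.4 CPM (−2.65). TOMM7, of the mitochondrial import pore, had the largest fall among called coding genes with separate groups and a mean of at least 10 CPM (24.5, 25.6 and 17.3 CPM against 256, 106 and 81.7 CPM, −2.71 ± 0.38). Without both libraries that stand apart TOMM7 and ATP5ME differed by −1.91 and −1.78, both still called, and the median of the respiratory chain list was −1.06 (74 lower, 1 higher). ATOX1, a copper chaperone, fell by 2.57 and TCEAL9 by 2.54, and without both libraries that stand apart they differed by −2.22 and −1.795. Of 46 proteasome genes 44 were lower (median −1.29, −0.41 on TPM, with 26 lower and 5 higher). Of 19 actin and tubulin genes 18 were lower (median −0.92), but on TPM the median was −0.01 and 4 were lower. TMSB10, which binds actin monomers, fell by 2.18 and the monomer-binding profilin PFN1 by 1.70. Without both libraries that stand apart they differed by −1.59 and −1.399.

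Translation factors were mostly lower, 42 of 67 with 6 higher. Their median of −0.69 turned to 0.21 on TPM, where the median of all genes was 0.71. EIF4EBP1, the repressor of cap-dependent translation, was at 68.4, 72.4 and 59.7 CPM against 434, 277 and 224 CPM (−2.22). The risen member with the largest difference was EIF2AK3, an ER membrane kinase (1.97). EIF3E was not called, and its levels of 677, 559 and 120 CPM in chromatin show how far replicate 3 departs. Of 26 replication-dependent histone genes, whose mRNAs end without a poly(A) tail, 21 were lower and none was higher (median −1.56, −0.44 on TPM with 11 lower and 1 higher). H4C2 had 1, 1 and 0 counts in chromatin and 14, 37 and 14 in cytoplasm, and H3C15 was at 0.48, 0.13 and 0.07 CPM against 3.24, 4.65 and 3.00 CPM. Histone genes are near-identical copies and their counts are low, so values of single members are uncertain. SCARNA10, a small Cajal body RNA, had 1, 1 and 3 counts in chromatin and 34, 58 and 38 in cytoplasm. It was 1 of the 2 that were lower among 6 tested structural RNAs, with RN7SL1. None was higher, though 2 were without both libraries that stand apart.

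Genes of the pluripotent state did not share a direction: 15 of 33 were higher, 6 lower and 12 not called (median 0.33). The shares were 45.5% higher and 18.2% lower, beside 34.8 and 29% over all genes. POU5F1, the central factor, was at 1122, 1263 and 1112 CPM in chromatin and at 3868, 2833 and 2611 CPM in cytoplasm (−1.41 ± 0.18, adjusted p = 1.77e-05), with no overlap. DPPA2, a chromatin protein of early embryos, was lower by −1.66. The rises were led by CDH1 and by the secreted growth factor GDF3 (7.15, 6.46 and 7.50 CPM against 1.43, 1.06 and 1.53 CPM, 2.39). Both code for proteins with a hydrophobic start. POU5F1 has several near-identical pseudogenes, so its counts are uncertain.

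Cell cycle and licensing genes were mostly lower (26 of 43, 3 higher), with a median of −0.49. On TPM the median turned to 0.34, beside 0.71 for all genes. MKI67, which coats mitotic chromosomes and has a very long mRNA, was at 242, 205 and 131 CPM against 56.4, 72.0 and 79.8 CPM (1.47). GMNN, the inhibitor of replication licensing, fell by 1.36, and differed by −0.86 without both libraries that stand apart. Among DNA and histone modifiers 27 of 41 were higher and 7 lower (median 0.51). The histone methyltransferase KMT2A was at 133, 134 and 134 CPM against 29.3, 30.4 and 32.5 CPM (2.12 ± 0.11) and its relative KMT2B differed by 1.82. HDAC2, a histone deacetylase, was at 230, 230 and 92.8 CPM against 408, 440 and 416 CPM (−1.19, and −0.90 without both libraries that stand apart). RNF2, the ubiquitin ligase of Polycomb complex 1, was lower by −1.11.

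SR splicing factors and CLK kinases, several of whose genes keep introns in nuclear transcripts, were split 7 higher and 6 lower of 24 (median 0.00). These shares, 29.2 and 25%, were near the 34.8 and 29% over all genes. The scaffolds of nuclear speckles rose: SRRM2 was at 1524, 1509 and 2084 CPM against 522, 538 and 621 CPM (1.61), and SON differed by 1.40. The small factors SRSF3 and SRSF9 were lower, by −1.18 and −1.13. Of 26 genes for mRNA export and surveillance 8 were higher (30.8%, beside 34.8% of all genes) and 10 lower (38.5%, beside 29%). SMG1, the kinase of nonsense-mediated decay, was at 1.18 and UPF3B, its exon junction partner, at −1.3. TPR, the basket protein of the nuclear pore, was lower by −1.07, with 76.2, 64.0 and 17.9 CPM against 94.5, 118 and 119 CPM. Of 389 zinc finger genes 106 were higher and 61 lower, both smaller shares than over all genes. Of 34 immediate early genes 7 were higher (20.6%) and 6 lower (17.65%), again smaller shares than over all genes. CCN1 and CCN2, secreted matricellular proteins, were higher by 2.20 and 1.99, and the transcription factor ATF3 was lower by −0.90.

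Of 1028 long non-coding RNAs 337 were higher (32.8%, beside 34.8% of all genes) and 180 lower (17.5%, beside 29%), with a median of 0.21. Their summed share of counts overlapped between the fractions, at 2.84, 2.75 and 2.81% in chromatin and 1.94, 3.21 and 2.83% in cytoplasm (exact permutation p = 0.90). The difference of the means, 0.14 percentage points, was −0.22 without cytoplasm replicate 1 and −3.78 as a share of summed TPM. The largest rise at a mean of 10 CPM was that of ENSG00000280087, at 35.4, 28 and 33.9 CPM against 1.56, 3.88 and 2.74 CPM (3.51 ± 0.40). LINC01002 followed at 2.86, ENSG00000260884 at 2.79 and LINC01013 at 2.77 (365, 294 and 275 CPM against 61.2, 39.7 and 37.3 CPM). On the other side LINC01356 was at 4.69, 5.78 and 5.39 CPM against 50.4, 30.3 and 23.6 CPM (−2.71), ENSG00000283103 differed by −2.39, LINC01405 by −2.28 and ENSG00000280511 by −1.78. Without both libraries that stand apart these falls were −2.37, −1.86, −1.67 and −1.42. SNHG14, a long host of small nucleolar RNAs, was at 2759, 2363 and 1551 CPM against 697, 680 and 696 CPM (1.69). Hosts of small nucleolar RNAs as a list were lower in 18 and higher in 10 of 37. Their median of −0.34 turned to 0.36 on TPM, beside 0.71 for all genes, and was −0.05 without both libraries that stand apart.

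The microRNA host transcripts MIR17HG and MIR302CHG were among the RNAs higher in chromatin. MIR17HG, host of the growth-promoting miR-17 cluster, was at 64.6, 62.5 and 55.2 CPM against 28.1, 18.1 and 17.4 CPM (1.53 ± 0.19, adjusted p = 1.42e-05). MIR302CHG, a member of the same list described here after its values were seen, was at 660, 683 and 851 CPM in chromatin and at 564, 210 and 164 CPM in cytoplasm (1.23 ± 0.36, adjusted p = 0.0084). Cytoplasm replicate 1 lay near the chromatin libraries for MIR302CHG, and the groups did not overlap for either host. Without cytoplasm replicate 1 the difference of MIR302CHG was 1.91 (adjusted p = 1.85e-05). MIR9-3HG, another host in the list, differed by 1.11, and by 0.86 without that library (adjusted p = 0.056 by edgeR). Without both libraries that stand apart its difference was 0.69 (adjusted p = 0.115 by edgeR). The mature microRNAs cut from MIR17HG and MIR302CHG are shown 5′ to 3′ because they identify what the transcripts carry. They are RefSeq entries on GRCh38.p14 and were not measured here. Capitals mark the seed, bases 2 to 8. The 4 miR-302 members share 1 seed and lie on the minus strand within chr4:112648006-112648511.
miR-302a-3p: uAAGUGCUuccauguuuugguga
miR-302b-3p: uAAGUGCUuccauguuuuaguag
miR-302c-3p: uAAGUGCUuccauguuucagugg
miR-302d-3p: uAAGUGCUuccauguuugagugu
The members of the miR-17 cluster lie on the plus strand within chr13:91350618-91351382 and fall into 4 seeds, 1 shared by miR-17-5p and miR-20a-5p and 1 by the miR-19 pair.
miR-17-5p: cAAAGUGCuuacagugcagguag
miR-20a-5p: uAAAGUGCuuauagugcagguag
miR-18a-5p: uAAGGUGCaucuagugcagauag
miR-19a-3p: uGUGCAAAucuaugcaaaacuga
miR-19b-3p: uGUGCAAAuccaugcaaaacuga
miR-92a-3p: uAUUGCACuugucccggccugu

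The most abundant RNA of the cytoplasm per length was ENSG00000278996, a gene on chromosome 21 that overlaps a ribosomal RNA unit (RNA45SN2), with a mean of 49833 TPM. It was at 878, 701 and 982 CPM in chromatin and at 177, 16953 and 11883 CPM in cytoplasm (−3.5 ± 1.0, adjusted p = 0.0074). The groups overlap, since cytoplasm replicate 1 lay below every chromatin library; without it the difference was −4.13. The same library set apart the transcripts that belong to no Ensembl gene, which took 1.23, 1.09 and 1.37% of counts in chromatin and 0.911, 9.36 and 7.87% in cytoplasm (exact permutation p = 0.40). The difference of the means was −4.82 percentage points, and −7.39 without cytoplasm replicate 1.

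The authors' assembly lists, beside annotated transcripts, isoforms of annotated genes that the annotation does not hold. Such unlisted isoforms took 16.8, 16.8 and 20.0% of counts in chromatin and 9.11, 10.5 and 10.6% in cytoplasm, a difference of 7.80 percentage points (exact permutation p = 0.10, the smallest possible). As a share of summed TPM the difference was 2.14 percentage points (exact permutation p = 0.70). Within genes, the unlisted share could be tested for 3410 genes that had both kinds. It was larger in chromatin in 754 (22.1%) and smaller in 207 (6.07%) by edgeR's quasi-likelihood test with Benjamini-Hochberg adjustment. The median share over these genes was 29.1% in chromatin and 23.3% in cytoplasm, and the median difference within a gene was 2.21 percentage points. Of the 754, 334 genes were themselves higher in chromatin, 172 lower and 248 not called. Over all genes tested for their level 34.8% were higher and 29% lower.

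The gains were led by LZTR1, an adaptor for RAS degradation, with 70.6, 79.6 and 81.3% of its counts in unlisted isoforms in chromatin and 33.2, 10.9 and 14.6% in cytoplasm (adjusted p = 9.86e-06). NUDT14 followed with 82.4, 81.3 and 91.5% against 22.3, 34.5 and 33.4%. U2AF1, which recognises the 3′ splice site, had 84.5, 90.4 and 85.9% against 14.2, 44.1 and 39.3%, but the assembly GRCh38 holds a near-identical second copy of U2AF1, so its counts are uncertain. In all 3 the fractions were apart in every library. The losses were less even. UBE3C, a ubiquitin ligase, had 0% in all chromatin libraries, where a count of 0 allows up to 0.245% by counting error alone, and 70.3, 45.1 and 67.8% in cytoplasm. SLIT2, a secreted guidance cue, had 0% in chromatin and 0, 65.3 and 100% in cytoplasm. TRAIP had 0% in chromatin and 100, 100 and 11.4% in cytoplasm. Isoforms of a gene share reads, and the part of this in shares that differ so far between replicates was not tested.

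The difference between fractions was then compared with that in the derived cell types, by an interaction term over 10689 genes found in the tables of all 4 cell types. The assembly differs between cell types, and the hPSC libraries enter all 3 comparisons. Ectoderm had a higher difference than hPSC for 997 genes (9.33%) and a lower one for 1487 (13.9%). For endoderm these counts were 1527 (14.3%) and 2834 (26.5%), and for mesoderm 735 (6.88%) and 1725 (16.1%). The split depends on the scaling: higher calls were 40.1, 35 and 29.9% of all calls with TMM factors, 55.2, 56.2 and 57.1% with DESeq2, and 50.9, 26.5 and 50.5% with library totals alone. Without mesoderm chromatin replicate 3 the mesoderm interaction called 3734 genes in place of 2460. Directions of single lists are therefore given with their size.

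The mitochondrial excess in chromatin was largest in hPSC. Over the 15 mitochondrial genes in all tables the median log2 difference of 3.57 in hPSC compared with 0.84 (ectoderm), 2.13 (endoderm) and −1.55 (mesoderm). The interaction was below that of hPSC for 15, 6 and 15 of them. MT-ATP6, a subunit of ATP synthase, was at 1436, 1122 and 1086 CPM in hPSC chromatin against 48.4, 41.5 and 70.8 CPM in cytoplasm, and at 123, 144 and 723 CPM against 1556, 1770 and 1436 CPM in mesoderm. The ER-targeted list stayed higher in chromatin in every cell type, with medians of 2.47, 1.38, 2.84 and 2.26 over 99 genes. It was below hPSC in ectoderm for 68 genes. In endoderm 33 were above hPSC and 11 below, and in mesoderm 2 and 17. ER machinery genes had medians of 0.74 in hPSC and −0.25, −0.06 and 0.18 in the others, with 23, 21 and 14 of 38 genes below hPSC and none above. Cytosolic ribosomal protein genes were lower in chromatin in all, with medians of −1.57, −1.86, −2.49 and −2.69, and 6, 51 and 51 of 85 were further below in ectoderm, endoderm and mesoderm. Over all genes 13.9, 26.5 and 16.1% were below hPSC. The 6 ribosomal protein genes in ectoderm and the 11 ER-targeted genes below hPSC in endoderm were smaller shares than these. The 17 ER-targeted genes below hPSC in mesoderm were a share near that of all genes. PRR11, among the largest rises in hPSC, had no such difference in ectoderm, at 89.9, 78.3 and 95.3 CPM in chromatin and 124, 110 and 120 CPM in cytoplasm (interaction −4.62 ± 0.27, adjusted p = 1.44e-10). TCAF1, which regulates a cold-sensing channel, had a like pattern, at 255, 213 and 120 CPM against 10.2, 14 and 13.5 CPM in hPSC and 136, 130 and 122 CPM against 200, 179 and 185 CPM in ectoderm.

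**Figure D5:**
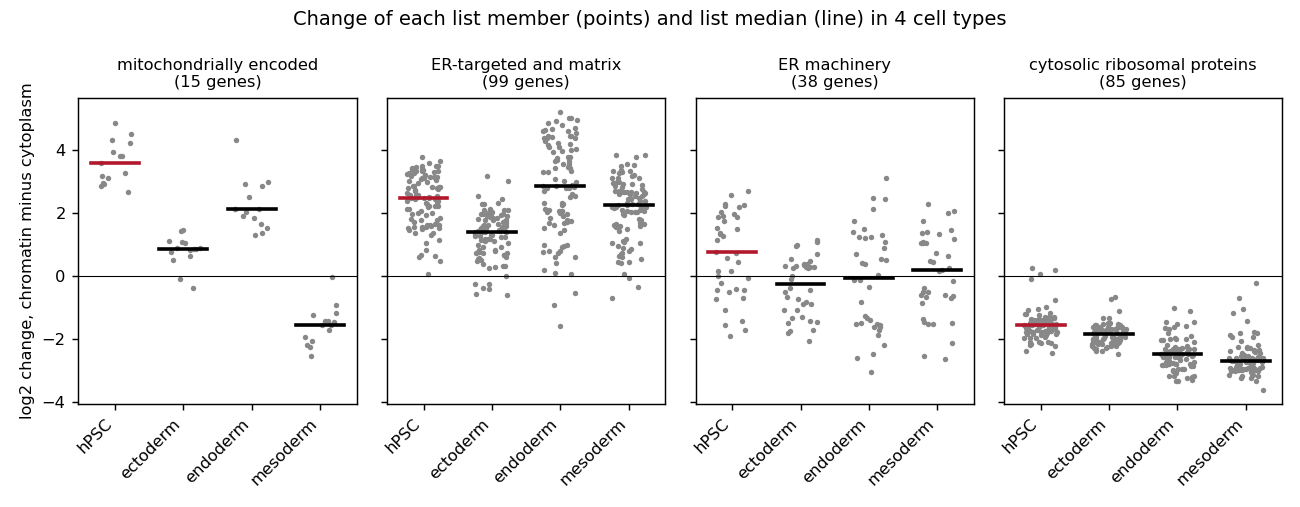
Log2 change on counts, chromatin minus cytoplasm, by cell type (hPSC first) for the genes of 4 lists; points are genes and lines medians. The mitochondrial medians are 3.57, 0.84, 2.13 and −1.55, and the ribosomal protein medians −1.57, −1.86, −2.49 and −2.69.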

How the data were processed

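RNA sequencing libraries of hPSC chromatin and cytoplasm (3 each) were analysed, within the 12 hPSC libraries of 4 fractions. The authors' deposited tables hold counts and TPM per assembled transcript. The submitters' processing notes name STAR, RSEM and hg38, with no versions, so the whole-number counts may be rounded estimates. Transcripts were summed per Ensembl gene, and 2 columns of per-sample values that match no sample were not used. Names and lengths came from GENCODE 29.

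Counts were fitted with edgeR 4.0.16 (R 4.3.3) over the 12 hPSC libraries, with TMM factors, filterByExpr at a minimum count of 10, and the quasi-likelihood test at a Benjamini-Hochberg adjusted p below 0.05. CPM printed for these libraries are TMM-scaled; CPM of the comparison across cell types come from a fit of their own, over the genes they share. That fit has an interaction term. TPM, as the authors deposited them, were tested as log2(TPM + 1) with limma 3.58.1. DESeq2 1.42.0 was an alternative. Shares were tested by exact permutation. A hydrophobic start is a run of 10 residues in the first 40 with a mean Kyte-Doolittle hydropathy of at least 2, and an internal stretch a window of 19, in proteins translated from GENCODE with Python 3.11.15. On simulated data of 13877 genes the test recovered 81% of 2-fold and 100% of 4-fold changes, and of 3327 genes with unlisted isoforms 64% and 100%. False calls numbered 11 and 18. The simulation changed 100 genes by each fold, with a fixed spread and no library standing apart, so it does not give the power in these libraries.

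Genes named were called genes with separate groups and a mean of at least 10 CPM: the 6 coding and 4 long non-coding genes with the largest change each way. Added to these were the 8 with the highest TPM in each fraction, the 2 members of each list with the largest called change each way and the 1 with the smallest change, and the 3 largest each way of each interaction and of isoform shares. A few genes that this rule names are not reported here. The libraries, lists and members were chosen with earlier results of these data known. Replicate numbers come from the labels. Deviations of same-numbered chromatin and cytoplasm libraries correlated at −0.04, 0.01 and 0.00 across 13987 genes, so the numbers were not taken to pair the libraries. Counting limits cover counting error only.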

Additional observations from a re-analysis of the deposited data

Results flagged for a closer look

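The difference between chromatin and cytoplasm departed from that in hPSC, by edgeR's interaction test with Benjamini-Hochberg adjustment, for 2484 (ectoderm), 4361 (endoderm) and 2460 (mesoderm) genes. The genes with the largest fitted departures follow, as the derived cell type minus hPSC on the log2 scale, with mean CPM in chromatin and cytoplasm.

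In ectoderm the pseudogene PVRIG2P departed by 3.91 (9.28 and 0.0796 CPM, against 58.3 and 9.68 CPM in hPSC). Its call was lost without ectoderm cytoplasm replicate 1 or 2 (adjusted p = 0.0563 and 0.0588). FNTB, the β-subunit of farnesyltransferase, departed by 3.14 (30.2 and 3.48 CPM, against 32.4 and 32.7 CPM in hPSC). MEF2B, a transcription factor, departed by 3.04 (6.54 and 1.51 CPM, against 15.8 and 30.6 CPM in hPSC), with an adjusted p of 0.0735 in DESeq2. In the other direction PRR11 departed by −4.62, TCAF1 by −4.49 and MT-ND4L by −3.67. MT-ND4L was at 58.0 and 61.9 CPM in ectoderm and 129 and 11 CPM in hPSC, and its call was lost without ectoderm cytoplasm replicate 3 (adjusted p = 0.0715).

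In endoderm several genes had no or nearly no counts in a fraction, so a floor of 3 counts per library stands for that group. Genes were ranked by the fitted value without this floor. A value printed with the floor need not be among the largest: ZNF135 was at 5.46 in the fit. With the floor SLX1A, a subunit of a DNA repair nuclease, departed by 2.56, with counts in only 1 endoderm chromatin library and in none of cytoplasm. Its call was lost without that library, endoderm chromatin replicate 2, and on TPM (0.25, adjusted p = 0.718 by limma), and a near-identical copy of the gene makes its counts uncertain. HAPSTR1, a stress response gene, departed by 4.08 (1.89 and 0.0400 CPM, against 43.1 and 70.4 CPM in hPSC), and its call was lost on TPM (0.51, adjusted p = 0.188 by limma). ZNF135 departed by 1.29, and U2AF1, with no counts in endoderm chromatin, 12.7 CPM in cytoplasm, and 78.4 and 42.1 CPM in hPSC, by −6.10. ENSG00000280614, which overlaps a ribosomal RNA unit, departed by −6.41, at 1583 and 11235 CPM in endoderm and 8.56 and 0.764 CPM in hPSC. ENSG00000248605 departed by −3.75.

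In mesoderm ENSG00000290548 departed by 5.04 (89.8 and 1.8 CPM, against 14 and 9.13 CPM in hPSC). ZNRF3, a membrane ubiquitin ligase that removes Wnt receptors, departed by 4.71 (20.1 and 0.219 CPM, against 72.0 and 21.7 CPM), but on TPM by 0.86, which was not called (adjusted p = 0.0668 by limma). XYLT1, which starts proteoglycan chains, departed by 1.8 with the same floor in mesoderm cytoplasm. ENSG00000280800, which overlaps another ribosomal RNA unit, departed by −18.23 with the floor, having no counts in mesoderm chromatin and 13439 CPM in cytoplasm. In hPSC its values equal those of ENSG00000280614, a near-identical copy, so both are uncertain. MT-ATP6 departed by −6.76 and MT-ATP8 by −6.52, the latter not called on TPM (−2.47, adjusted p = 0.562 by limma). MT-ATP8 was at 2.38, 3.23 and 19.9 CPM in mesoderm chromatin and 8.22, 97.1 and 16.4 CPM in cytoplasm, so these groups overlap.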

How the results depend on the processing

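Depth limits genes of a few reads, as in the histones and SCARNA10. The main count of 8919 genes was between 8166 and 9044 when 1 library was left out, 8853 with the replicate block, which the lack of pairing gives no ground for, 9012 with DESeq2, and 4789 when a 2-fold change was required. Fitted on the 6 chromatin and cytoplasm libraries alone, 7621 of 13740 genes tested were called, 7590 of them among the 8919. That fit called 734 isoform shares in place of 961. A 2-fold requirement left 1452, 2480 and 1186 genes in the interactions of ectoderm, endoderm and mesoderm, and TPM left 1217 and 1039 in ectoderm and mesoderm. With 1 library left out the interactions gave 1992 to 2959, 3711 to 5152 and 1881 to 3734 genes; the last value is without mesoderm chromatin replicate 3, so that library bears on the mesoderm count. The replicate block gave 2443, 4315 and 2467, and 922 for isoform shares, which ran from 833 to 942 with 1 library left out. Without both hPSC libraries that stand apart, an alternative chosen after seeing the data, 9099 genes were called, 8127 of them among the 8919, and 858 isoform shares. On TPM the sign turned for the medians of translation factors (0.21), glycolysis (0.16), snoRNA hosts (0.36) and cell cycle genes (0.34), for ID3 (0.11), and for genes not called on counts: LINC01194 (0.74), RPL4 (0.88), COX6A1 (0.98), PFKL (0.82), SRSF2 (0.78), SNHG3 (0.86), ZNF875 (0.70), SLC7A6OS (0.82), MCM5 (0.89), MVK (0.76) and RING1 (0.82). It also turned for the interactions of PVRIG2P (−0.93), ZNF135 (−1.35) and XYLT1 (−1.01). On TPM the median of all genes in the main comparison was 0.71. LINC01194 and EIF3E turned to 0.36 and 0.45 without chromatin replicate 3, with lowest values of −0.33 and −0.47 when chromatin replicate 1 was left out, and to 0.49 and 0.52 without both libraries. The lncRNA share difference of 0.14 percentage points was −3.78 as a share of summed TPM, and ran from −0.22 (without cytoplasm replicate 1) to 0.41 with 1 library left out; the causes were not tested. Over values for single genes and lists, 3071 were on the same side, 97 moved, 30 lost and 6 gained the call. The fall of TPR was not called over the 6 libraries alone (adjusted p = 0.0541).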
